A study of Mus musculus with 21 samples.

Results

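Toll-like receptors are membrane proteins that sense molecules of microbes, and Myd88 is the adaptor through which most of them signal. The 8 receptor genes Tlr1, Tlr2, Tlr3, Tlr4, Tlr5, Tlr6, Tlr7 and Tlr9, with Myd88, were followed in tuft cells of 5 mouse organs. They were chosen by symbol, and each of the 9 symbols matched 1 row of the count tables, out of 43432 gene identifiers in all. In a Toll-like receptor pathway as described in immune cells, a ligand brings a pair of receptors together, their inner TIR domains recruit Myd88, and IRAK kinases and TRAF6 then release NF-kB. Tlr3 is the exception, since it signals through Ticam1 (TRIF) alone, and Tlr4 can use both adaptors. Receptors for bacterial surface molecules sit on the cell surface, while those for nucleic acids sit in endosomes, where Unc93b1 delivers them. Tuft cells are rare epithelial cells that sense luminal chemicals and are a source of the cytokine IL-25 in these organs.

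The libraries were bulk mRNA-seq of sorted cells from naive Il25 reporter mice, labelled C57BL6.Il25(Flare25/Flare25). All groups carried this allele, on both copies. Tuft cells were sorted as DAPI- CD45- EPCAM+ Flare25+ cells from small intestine (3 libraries), colon (4), gall bladder (3), thymus (4) and trachea (4). The reference was Flare25- epithelium of the small intestine (3 libraries), so no other organ had non-tuft cells to compare with, and elsewhere organ and cell type cannot be told apart. Mice were 12-week-old males, except in the trachea, where each library pooled 4 mice of 12 to 16 weeks and pools 3 and 4 were female. The reporter marks cells by Il25, so tuft cells that do not transcribe it were not collected.

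Library totals ran between 25739248 and 73574745 counts, so that 3 counts, the limit that a count of 0 allows, stood for 0.0434 to 0.117 CPM. Levels are in CPM, read counts set to a common depth with TMM factors. Input differed by organ: 35000 to 36000 cells of small intestine tuft, 13500 to 16000 of colon, 1750 to 2700 of gall bladder, 1350 to 1900 of thymus and 130 to 453 of trachea, against 52000 to 57000 non-tuft cells. The sum of 8 tuft markers was 10518 to 13600 CPM in small intestine tuft cells, 2718 to 3709 in colon, 12517 to 13354 in gall bladder, 3976 to 5065 in thymus and 7184 to 11483 in trachea, against 105 to 202 CPM in non-tuft cells. Bulk levels cannot tell fewer expressing cells from less RNA per cell. The labels name separate replicates, and where a library came from 1 mouse or 1 pool the p-values measure the spread between those.

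Tlr1 and Tlr9 had the strongest tissue patterns, and the stretches upstream of their starts are shown for that reason. Both come from RefSeq on GRCm38.p6. Promoter windows of 250 bases were available for 7 of the 9 members (Tlr1 and Tlr6 had 2 starts each); Tlr4 and Tlr7 had no entry. The Tlr1 stretch lies at chr5:64933564-64933808 on the minus strand, next to Tlr1 (chr5:64924679-64933563), and the Tlr9 stretch at chr9:106222348-106222597 on the plus strand, next to Tlr9 (chr9:106222598-106226883).
Tlr1: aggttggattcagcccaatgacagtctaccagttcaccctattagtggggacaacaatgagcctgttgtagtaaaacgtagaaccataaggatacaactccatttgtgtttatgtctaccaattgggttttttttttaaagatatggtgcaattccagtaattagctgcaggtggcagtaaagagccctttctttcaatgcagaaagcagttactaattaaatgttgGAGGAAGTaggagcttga
Tlr9: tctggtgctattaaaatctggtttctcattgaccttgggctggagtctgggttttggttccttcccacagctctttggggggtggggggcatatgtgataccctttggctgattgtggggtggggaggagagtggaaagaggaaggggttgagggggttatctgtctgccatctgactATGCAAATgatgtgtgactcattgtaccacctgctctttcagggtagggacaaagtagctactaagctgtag
Capitals mark motifs, searched on both strands after the levels were known. In Tlr9 they mark the POU octamer ATGCAAAT, the type of site that POU factors such as the tuft cell regulator Pou2f3 can bind; 1.60% of 32851 mouse promoter windows hold it. In Tlr1 they mark GAGGAAGT, a PU.1 core found in 2.44% of the windows. Of the other member windows, that of Tlr2 held the NF-kB core GGGNNTTCC (4.98% of windows). These motifs do not overlap each other in the stretches shown, and a match is a description of letters, not of binding.

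Across the 5 tuft tissues, 6 of the 7 members with enough counts to be tested differed, by edgeR's quasi-likelihood F test with Benjamini-Hochberg adjustment over 19850 genes; 56.7% of all genes did. The exception was Myd88 (adjusted p = 0.632). When each tissue was set against the mean of the other 4, 16 of 35 member values passed the call rule (adjusted p below 0.05, fold 2 or more), beside 23.8% of all gene values. By tissue, 2 members were lower in small intestine (beside 7.45% of genes called lower), 2 were higher and 1 lower in colon (10.7% and 5.78% of genes), 3 were higher and 1 lower in gall bladder (12.7% and 8.79%), 2 were higher in thymus (26.8%), and 2 were higher and 3 lower in trachea (17.3% and 13.7%). Among the 10 pairs of tissues, 29 of 70 were called, beside 23% of all. Tlr6 and Tlr7 were too low to be tested.

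**Figure D1:**
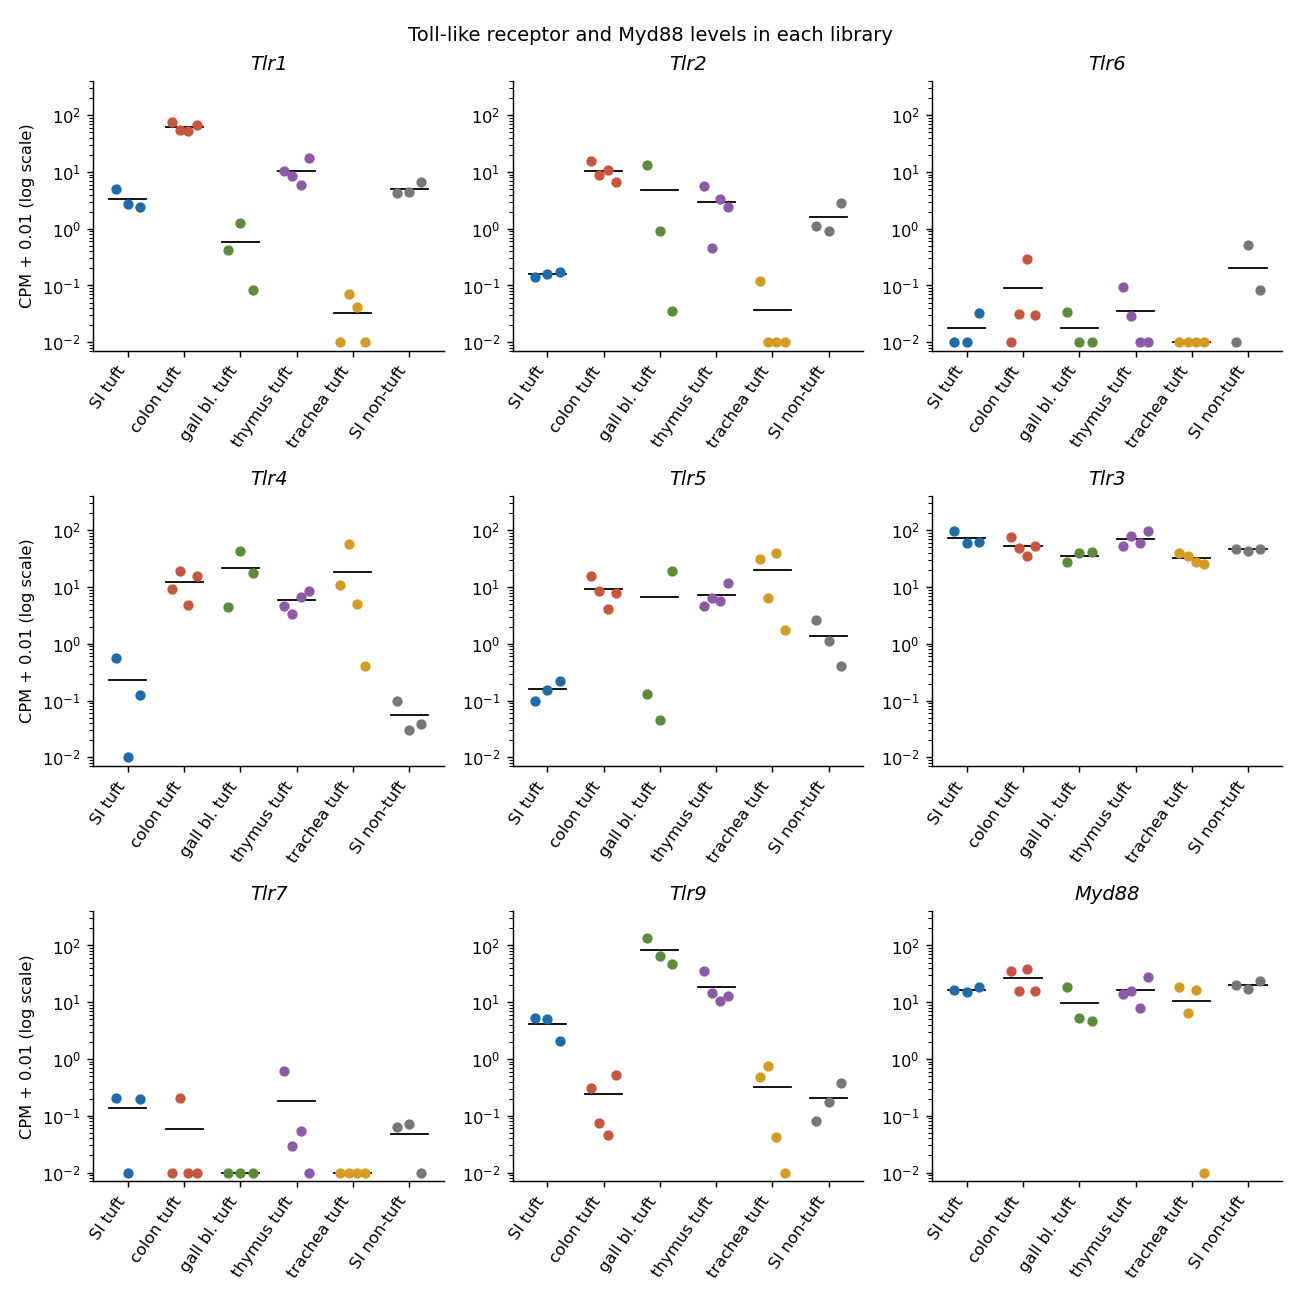
Level of each receptor and of Myd88 in CPM + 0.01 (log axis) in every library of the 5 tuft groups and of small intestine (SI) non-tuft cells; points are libraries, bars are group means of CPM, and points on the lowest line are at 0. Myd88 was at 0 in 1 trachea library, while Tlr1 was highest in colon and Tlr9 in gall bladder.

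The receptors of the cell surface are described first. Tlr1, which pairs with Tlr2 to bind bacterial triacyl lipopeptides, was highest in colon among the tuft tissues. It reached 76.5, 54.4, 52.9 and 67.5 CPM in the 4 colon tuft libraries. Thymus tuft libraries followed with 10.4, 8.37, 5.82 and 17.6 CPM, and small intestine tuft libraries held 4.93, 2.71 and 2.37 CPM. Every colon library lay above every other library, and thymus and small intestine tuft libraries did not overlap. Gall bladder tuft libraries held 0.417, 1.24 and 0.0749 CPM, and the 4 trachea libraries together held 5 reads (0, 0.0605, 0.0315 and 0 CPM). Non-tuft cells of the small intestine had 4.23, 4.44 and 6.64 CPM and overlapped the upper end of the small intestine tuft libraries. The log2 fold change of colon over the other 4 tuft tissues was 6.13 ± 0.53 (SE; edgeR adjusted p = 8.49e-08), and that of thymus was 2.95 ± 0.51 (adjusted p = 1.33e-04). Trachea was lower, with a fitted log2 value of -7.67 ± 0.94 (adjusted p = 4.41e-06) that rests on those 5 reads, and gall bladder was lower at -2.29 ± 0.77 (adjusted p = 0.037). The gall bladder call ended without small intestine tuft replicate 2, trachea replicate 2, gall bladder replicate 1 or 4, or any 1 of the 4 colon libraries (adjusted p up to 0.117), and the value was -3.50 without gall bladder replicate 3. Colonocyte markers were also highest in colon, where the sum of 4 was 6581 to 10037 CPM. That sum was 1050 to 1397 CPM in small intestine tuft libraries and 925 to 1361 CPM in gall bladder. It was 211 to 272 CPM in thymus, 323 to 715 CPM in trachea and 1020 to 1409 CPM in non-tuft libraries. The part of colonocytes in the Tlr1 and Tlr2 values was not tested. Of the 10 pairs of tissues, 8 were called for Tlr1. The pairs not called were gall bladder over small intestine (log2 -2.53 ± 0.85, adjusted p = 0.0509) and thymus over small intestine (1.66 ± 0.78, adjusted p = 0.13).

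Tlr2 (chr3:83836272-83841767, minus strand), the partner of Tlr1 and of Tlr6 in lipopeptide sensing, was also highest in colon, at a lower level. Colon tuft libraries held 15.9, 8.83, 11 and 6.52 CPM. Gall bladder libraries held 13.4, 0.919 and 0.025 CPM, and thymus libraries 5.73, 0.441, 3.38 and 2.42 CPM. The gall bladder group therefore rested on 1 library, replicate 1, and overlapped both colon and thymus. Small intestine tuft cells were uniformly low, with 0.132, 0.147 and 0.163 CPM, against 1.13, 0.891 and 2.86 CPM in the non-tuft cells, and these groups did not overlap. Trachea held 4 reads in 1 library, 0.11 CPM, and 0 in the other 3. Colon exceeded the mean of the other tuft tissues by 4.36 ± 0.92 (log2, edgeR adjusted p = 0.00205), and trachea lay below it, with a fitted -6.23 ± 1.58 (adjusted p = 0.00509); the trachea value was -5.34 (adjusted p = 0.0544) without the 2 female pools and -9.67 without replicate 1, a fitted value from 3 libraries at 0. The gall bladder value of 3.01 ± 0.97 (adjusted p = 0.0304) turned to -0.36 without gall bladder replicate 1, and its call also ended without any 1 of the small intestine tuft libraries (adjusted p up to 0.0553). Of the 10 pairs of tissues, 4 were called for Tlr2. Neither gall bladder over colon (-1.08 ± 1.41, edgeR adjusted p = 0.618) nor thymus over colon (-1.78 ± 1.30, adjusted p = 0.360) was among them. Colon over small intestine was 6.11 ± 1.81 (adjusted p = 0.0399), a call that ended in 8 of 18 fits that left out 1 library.

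Tlr6 (chr5:64952031-64960097, minus strand), which pairs with Tlr2 for diacyl lipopeptides, was near the detection limit everywhere, at 0 to 0.506 CPM, with at most 25 reads in a library. Tlr1 and Tlr6 are neighbours on chromosome 5, 18467 bases apart, and near-identical in part. Of the 50-base words of Tlr1 transcripts, 13.6% also occur in Tlr6, so reads there may have been assigned to either gene or dropped. The colon libraries with 52.9 to 76.5 CPM of Tlr1 had 0 to 0.287 CPM of Tlr6.

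Tlr4 (chr4:66827584-66930284, plus strand), the receptor for lipopolysaccharide, was present in tuft cells of 4 organs and near the detection limit in both small intestine groups. Colon tuft libraries held 9.39, 19, 4.86 and 15.7 CPM, and thymus libraries 4.64, 3.33, 6.77 and 8.68 CPM. Gall bladder libraries held 4.42, 43.4 and 17.4 CPM, and trachea libraries 11, 58.6, 4.95 and 0.39 CPM. Small intestine tuft libraries held 0.548, 0 and 0.116 CPM, and non-tuft libraries 0.0893, 0.0203 and 0.0289 CPM, which are 5, 1 and 2 reads. Trachea and gall bladder libraries spread most, and trachea replicate 4 alone came into the range of the small intestine. Small intestine tuft cells lay below the other tuft tissues, at -5.84 ± 1.48 (log2, edgeR adjusted p = 0.00824; -5.54, adjusted p = 0.0545, without small intestine tuft replicate 4). Each of the other 4 was called higher than small intestine tuft cells in its pair, from 4.70 ± 1.45 in thymus (adjusted p = 0.0222) to 6.59 ± 1.61 in gall bladder (adjusted p = 0.00879). The calls of thymus, colon and gall bladder ended without small intestine tuft replicate 4 (adjusted p = 0.0971, 0.114 and 0.05), and those of thymus and colon also without its replicate 3 (0.0805 and 0.0884). Among those 4 tissues no pair was called, the lowest adjusted p being 0.227. The calls of trachea (2.07 ± 0.79, adjusted p = 0.0495) and gall bladder (2.40 ± 0.84, adjusted p = 0.0452) over the other tuft tissues were near the threshold. They ended in 14 and 12 of the 18 fits that left out 1 library; trachea gave 0.29 (adjusted p = 0.894) without trachea replicate 2 and gall bladder 1.43 (adjusted p = 0.371) without gall bladder replicate 3.

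Tlr5 (chr1:182954788-182976044, plus strand), the receptor for bacterial flagellin, had its lowest group mean in small intestine tuft cells. Trachea libraries held 31, 6.4, 40.4 and 1.76 CPM, colon libraries 15.8, 8.57, 4.18 and 7.9 CPM, and thymus libraries 4.66, 6.3, 5.78 and 11.9 CPM. In gall bladder, 1 library had 19.6 CPM and the other 2 had 0.123 and 0.0353 CPM. Small intestine tuft libraries held 0.0877, 0.147 and 0.21 CPM, against 2.61, 1.13 and 0.39 CPM in non-tuft cells. Tuft and non-tuft libraries of the small intestine did not overlap. All libraries of trachea, colon and thymus lay above all small intestine tuft libraries, while gall bladder was divided, with its replicate 4 high. Small intestine tuft cells were lower than the other tuft tissues, at -5.96 ± 1.63 (log2, edgeR adjusted p = 0.0136), a call that ended when any 1 of its 3 libraries was left out (-5.72 to -6.31, adjusted p up to 0.075). Trachea was higher than the others by 2.78 ± 0.86 (adjusted p = 0.0173; 2.48, adjusted p = 0.0509, without trachea replicate 1, and 2.21, adjusted p = 0.0859, without replicate 3). Without the 2 female pools it was 2.73 (adjusted p = 0.0552), and without gall bladder replicate 4 it was 4.38. Of the 10 pairs of tissues, 4 were called for Tlr5, each with small intestine tuft cells. No pair among trachea, colon, thymus and gall bladder was called. The value of gall bladder over small intestine, 5.41 ± 1.67 (adjusted p = 0.0349), turned to -0.88 (adjusted p = 0.685) without gall bladder replicate 4, and its call also ended without any 1 of the small intestine tuft libraries (adjusted p up to 0.127). Airway secretory markers were high in trachea: the sum of 4 was 26356 to 106734 CPM, against at most 474 CPM in the other tuft libraries. The part of such cells in the trachea values of Tlr5, Tlr4 and the genes described below was not tested.

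Of the nucleic acid receptors, Tlr3 (chr8:45395665-45411080, minus strand), which binds double-stranded RNA, was the only one found at more than 25 CPM in each library. Small intestine tuft libraries held 96.2, 58.8 and 63.3 CPM, colon 75.7, 49.3, 34.9 and 53 CPM, and gall bladder 27.2, 39.5 and 41.3 CPM. Thymus libraries held 53.4, 78.3, 58.7 and 96.5 CPM, and trachea libraries 39.1, 36, 28 and 26 CPM. Non-tuft cells were even, at 47, 43.6 and 47.6 CPM. All trachea and all gall bladder libraries lay below all thymus and all small intestine libraries, tuft and non-tuft. Thymus and small intestine tuft libraries also lay above the non-tuft ones, and colon overlapped every other group. The pairs called were thymus over trachea (log2 1.20 ± 0.33, edgeR adjusted p = 0.0104) and trachea over small intestine (-1.23 ± 0.35, adjusted p = 0.013). Gall bladder over thymus was -0.997 ± 0.36 (adjusted p = 0.0412), just under the fold threshold. Both calls ended with voom (1.04, adjusted p = 0.123, and -1.12, adjusted p = 0.0748). Without the 2 female trachea pools they were 0.86 (adjusted p = 0.121) and -0.97 (adjusted p = 0.0968), and without small intestine tuft replicate 2 the second was -0.90 (adjusted p = 0.13). An antisense gene, which the count tables do not list, covers part of Tlr3 and shares 5.30% of its 50-base words; reads of both genes could not be told apart unless strand was used.

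Tlr9, the receptor for unmethylated CpG DNA, had gall bladder at the top of its order and colon and trachea at the bottom. Gall bladder tuft libraries held 135, 65.3 and 47.7 CPM, thymus libraries 35.4, 14.3, 10.3 and 12.9 CPM, and small intestine tuft libraries 5.22, 5.13 and 2.03 CPM. Colon libraries held 0.296, 0.0649, 0.0359 and 0.521 CPM, and trachea libraries 0.469, 0.742, 0.0315 and 0 CPM. Non-tuft cells of the small intestine held 0.0715, 0.162 and 0.361 CPM. The libraries of gall bladder, thymus and small intestine tuft cells formed 3 steps without overlap, while colon, trachea and non-tuft cells shared a range under 1 CPM. Gall bladder was higher than the other tuft tissues by 5.77 ± 0.67 (log2, edgeR adjusted p = 4.88e-06) and thymus by 3.04 ± 0.63 (adjusted p = 7.95e-04), while colon was lower, at -4.87 ± 0.99 (adjusted p = 0.00149), as was trachea, at -4.29 ± 0.96 (adjusted p = 0.00192). Neighbours in that order were not all called: gall bladder over thymus was 2.18 ± 0.96 (adjusted p = 0.0864) and thymus over small intestine 2.15 ± 1.02 (adjusted p = 0.132). No 50-base word of Tlr9 occurs in another gene's transcripts.

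B cells and plasmacytoid dendritic cells are known for Tlr9, so their markers are given beside it. The sort was for CD45- cells, and its purity was not examined. The sum of 3 B cell markers (Cd79a, Cd79b and Ms4a1) was 29.9 to 106 CPM in gall bladder, 14.4 to 37.7 in thymus, 1.52 to 2.94 in small intestine tuft cells, 0.0649 to 0.301 in colon and 0 to 122 in trachea, against 0.608 to 1.59 CPM in non-tuft cells. In gall bladder, Ms4a1 was at 0 in all 3 libraries and Cd79a in 2 of them, while Cd79b, at 29.9 to 106 CPM, made up most of the sum. In thymus each of the 3 B cell markers was detected in at least 1 library. In trachea Cd79a and Ms4a1 were at 0 in all libraries, so that sum was Cd79b alone. The sum of 6 dendritic markers was 0.125 to 13.2 CPM in gall bladder, with Itgax, Flt3 and Siglech at 0. In thymus the dendritic sum was 2.18 to 14.8 CPM, with each marker detected in at least 1 library. The part of these cells in the gall bladder and thymus values was not tested.

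Tlr7 (chrX:167304929-167330558, minus strand), the endosomal receptor for single-stranded RNA, was at 0 in all gall bladder and trachea libraries and at most at 0.616 CPM (36 reads, thymus replicate 1) elsewhere. It was not tested. Of the 4 mouse receptors outside the member list, Tlr8, Tlr11 and Tlr13 were too low to be tested among the tuft tissues. Tlr12, known in mouse for sensing profilin of protozoa, was at 5.27, 3.7, 3.62 and 5.3 CPM in thymus libraries and at 0 to 0.244 CPM in the other tuft libraries. These groups did not overlap, and thymus was higher by 8.30 on the log2 scale (edgeR adjusted p = 5.73e-06), a fitted value against groups with few reads.

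**Figure D2:**
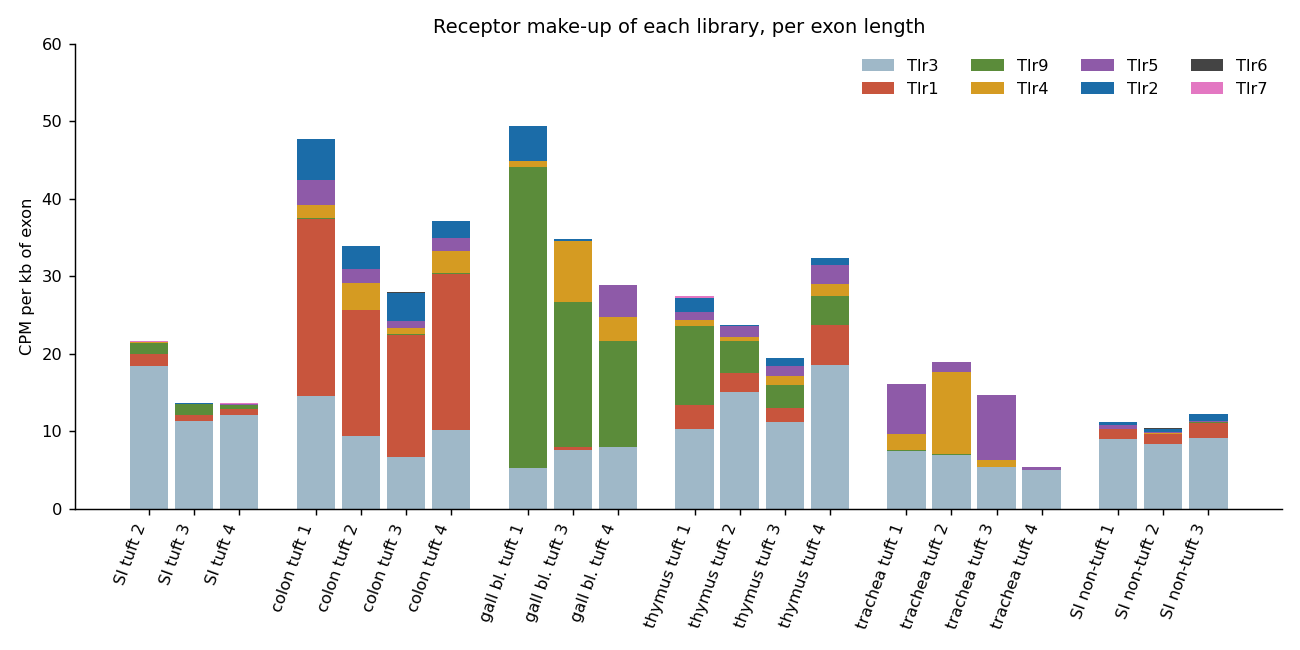
Stacked levels of the 8 receptors in each library, in CPM per kb of exon; each bar is 1 library and each colour 1 receptor. Tlr3 made up 82.7% to 89.3% of the bar in small intestine tuft cells, while Tlr1 took the largest part in colon and Tlr9 in gall bladder.

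Per kb of exon, which allows levels of genes to be compared, the 8 receptors summed to 16.3 ± 4.62 CPM per kb in small intestine tuft cells (SD, n = 3), 36.7 ± 8.29 in colon (n = 4), 37.7 ± 10.5 in gall bladder (n = 3), 25.8 ± 5.44 in thymus (n = 4) and 13.8 ± 5.88 in trachea (n = 4), against 11.3 ± 0.932 in non-tuft cells (n = 3). Tlr3 held 23.9% to 30.4% of the sum in colon libraries, 10.6% to 27.4% in gall bladder, 37.4% to 63.4% in thymus and 36.3% to 92.0% in trachea. In small intestine it held 82.7% to 89.3% in tuft and 74.4% to 80.3% in non-tuft cells. In each small intestine tuft and non-tuft library the receptor that does not use Myd88 had the larger part of the sum.

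Myd88 (chr9:119335934-119341411, minus strand), the adaptor that 7 of the 8 receptors use, passed the test in none of its 21 contrasts. Small intestine tuft libraries held 16.4, 15 and 18.7 CPM, colon 35.4, 15.7, 38.1 and 16 CPM, and gall bladder 18.7, 5.23 and 4.6 CPM. Thymus libraries held 13.7, 15.9, 7.98 and 28.1 CPM, and trachea libraries 18.2, 6.43, 16.6 and 0 CPM. Non-tuft cells held 20.2, 17.1 and 23.7 CPM. The tuft groups overlapped, and 1 trachea library, replicate 4, had no read. In 21 contrasts the log2 fold changes of Myd88 lay between -1.42 and 1.02, with 0 at an unadjusted p under 0.05. The lowest edgeR adjusted p was 0.300. For small intestine tuft over non-tuft cells, DESeq2 gave an adjusted p of 0.527. With an SE of up to 1.10, log2 differences of more than 1 between tissues could have been missed. Myd88 overlaps Acaa1a on the opposite strand in 290 exon bases, 11.3% of its exon length. Acaa1a had 1954 reads in trachea replicate 4, where Myd88 had 0.

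**Figure D3:**
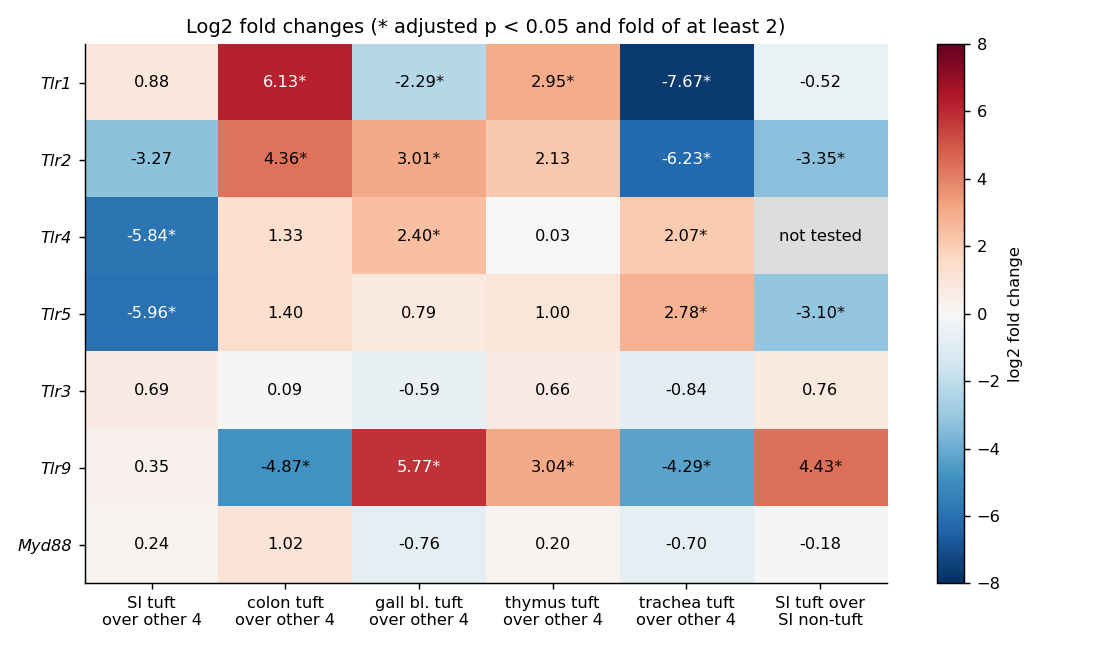
Log2 fold changes of the 7 tested members, each tuft tissue over the mean of the other 4 (columns 1 to 5) and small intestine tuft over non-tuft cells (last column); an asterisk marks values that passed both thresholds. The row of Myd88 holds no asterisk, colon is highest for Tlr1 (6.13) and gall bladder for Tlr9 (5.77).

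In the small intestine, where tuft and non-tuft cells came from the same organ, 6 members could be tested over 16063 genes. Tlr9 was higher in tuft cells, beside 13% of all genes that were called higher, and Tlr2 and Tlr5 were lower, beside 13.9% called lower. The log2 fold change of Tlr9 was 4.43 ± 0.70 (SE, 3 libraries a group, edgeR adjusted p = 6.63e-04). The values of the 2 lower genes were -3.35 ± 0.74 for Tlr2 (adjusted p = 0.00479) and -3.10 ± 0.88 for Tlr5 (adjusted p = 0.017). The Tlr5 call ended without non-tuft replicate 1 (-2.24, adjusted p = 0.125) and with voom (-2.98, voom adjusted p = 0.0629). In the edgeR fit of all 21 libraries the calls of Tlr2 (-3.41, adjusted p = 0.231) and Tlr5 (-3.16, adjusted p = 0.264) both ended. Tlr3 was higher by 0.76 ± 0.18 (adjusted p = 0.00725), under the fold threshold. Tlr1 (-0.52 ± 0.38, adjusted p = 0.304) and Myd88 (-0.18 ± 0.19, adjusted p = 0.479) did not pass. Markers of other epithelial types differed between these libraries: the sum of 5 goblet markers was 1943 to 2366 CPM in tuft libraries, against 99674 to 109162 CPM in non-tuft libraries. The sum of 6 enterocyte markers went the other way, at 20594 to 25635 CPM in tuft libraries, against 10967 to 12301 CPM in non-tuft libraries. The part of these types in the Tlr2 and Tlr5 differences was not tested.

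Against the same 3 non-tuft libraries, which all such contrasts share, 11 of 35 member values were called in the fit of 21 libraries, beside 19.8% of all gene values. Tlr4 was higher in gall bladder (log2 8.82 ± 1.74, adjusted p = 6.63e-04), trachea (8.62 ± 1.71, adjusted p = 5.35e-04), colon (8.0 ± 1.67, adjusted p = 0.00287) and thymus (6.81 ± 1.59, adjusted p = 0.00296) by edgeR's test, against 8 reads in the 3 non-tuft libraries. Tlr1 was higher in colon (3.64 ± 0.80, adjusted p = 0.00462) and lower in gall bladder (-3.14 ± 0.82, adjusted p = 0.0067) and trachea (-7.40 ± 0.92, adjusted p = 2.27e-06). Tlr2 was lower in trachea (-5.77 ± 1.56, edgeR adjusted p = 0.00716), a call that ended without the 2 female pools (-4.94, adjusted p = 0.0593); the fitted value was -9.30 without trachea replicate 1, which left 3 libraries at 0. In that fit Tlr9 was higher in gall bladder (8.70 ± 1.40, edgeR adjusted p = 7.98e-05), thymus (6.39 ± 1.26, adjusted p = 6.51e-04) and small intestine tuft cells (4.38 ± 1.16, adjusted p = 0.0224). The last call ended without small intestine tuft replicate 2 or 3 or non-tuft replicate 1 or 2 (3.98 to 4.25, adjusted p up to 0.129). These values set organs as well as cell types apart.

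**Figure D4:**
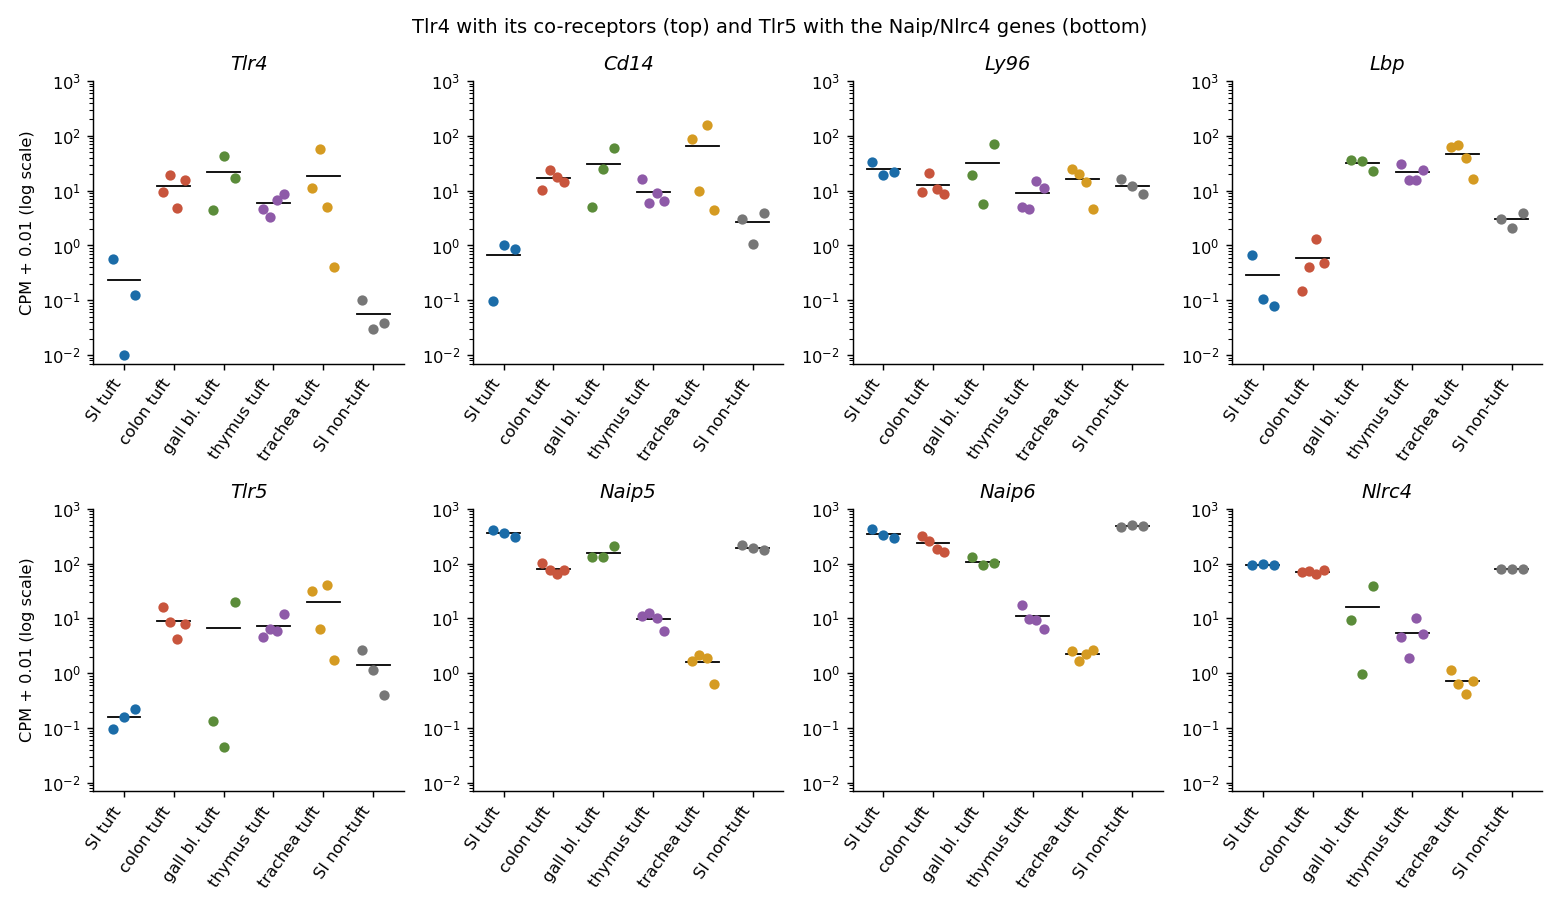
Tlr4 with Cd14, Ly96 and Lbp (top) and Tlr5 with Naip5, Naip6 and Nlrc4 (bottom) in CPM + 0.01 (log axis), by library; bars are group means. Small intestine tuft libraries were low for Tlr4, Cd14, Lbp and Tlr5 and high for Naip5, Naip6 and Nlrc4, and trachea libraries were low for the last 3.

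Co-receptors of Tlr4 did not all share its pattern. Cd14, which hands lipopolysaccharide to the receptor, was at 0.0877, 1.03 and 0.838 CPM in small intestine tuft libraries, 10.4, 24.2, 17.6 and 14.6 CPM in colon and 89.1, 9.79, 157 and 4.41 CPM in trachea. Non-tuft libraries held 3, 1.05 and 3.96 CPM, above all small intestine tuft libraries. Small intestine tuft cells lay below the other tuft tissues, at -5.14 on the log2 scale (edgeR adjusted p = 0.00338). Lbp, the lipopolysaccharide-binding protein, was at 0.658, 0.0978 and 0.0698 CPM in small intestine tuft libraries and at 62.2, 66.7, 38.9 and 16.1 CPM in trachea. It was called lower in small intestine (-5.36) and in colon (-4.08) and higher in gall bladder (3.17), thymus (2.48) and trachea (3.79) than in the other tuft tissues of each contrast. The colon tuft libraries, in which Tlr4 and Cd14 were detected, held 0.136 to 1.29 CPM of Lbp. Bulk levels cannot show whether the same cells held these transcripts. Ly96 (MD-2), which forms the binding pocket with Tlr4, was present in the small intestine all the same, at 33.5, 19.3 and 21.6 CPM in tuft libraries against 16.1, 12.3 and 8.75 CPM in non-tuft libraries, and was higher in tuft cells by 1.10 (adjusted p = 0.009). Cd180, a receptor relative that pairs with Ly86, was at 59.3, 120, 73.4 and 99.6 CPM in thymus libraries and was called higher there (3.10, adjusted p = 0.00162). Unc93b1, which delivers Tlr9 and the other endosomal receptors, was at 4.8 to 116 CPM in the tuft libraries and at 27.5 to 32.5 CPM in non-tuft libraries.

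Flagellin has a sensor in the cytosol as well, in which Naip5 and Naip6 bind it and Nlrc4 forms the inflammasome. Naip5 was at 405, 368 and 309 CPM in small intestine tuft libraries and at 1.63, 2.1, 1.89 and 0.624 CPM in trachea libraries. Trachea had the highest group mean of Tlr5, but was not called above colon, thymus or gall bladder in its pairs. Nlrc4 was at 94.4, 97.1 and 95.9 CPM in small intestine tuft libraries, at 64.5 to 76 CPM in colon and at 0.41 to 1.13 CPM in trachea. Small intestine and trachea libraries did not overlap for either gene. Of 12 other microbial sensors tested, 6 were called higher in small intestine tuft cells than in the other tuft tissues (Nlrp6, Nlrc4, Naip1, Naip2, Naip5 and Naip6; list median log2 1.25, against -0.14 over all genes), beside 10% of all genes, and 6 lower in trachea (Nlrp6, Nlrc4, Naip1, Naip2, Naip5 and Naip6; median -2.50, against -0.01 over all genes), beside 13.7% of all genes. Naip genes are near-identical copies, so the split of reads among them is uncertain. Non-tuft cells of the small intestine held 177 to 216 CPM of Naip5 and 78.9 to 80.5 CPM of Nlrc4. The sum of 6 enterocyte markers was 20594 to 25635 CPM in small intestine tuft libraries, against 103 to 1482 CPM in the other tuft libraries. The part of such cells in the sensor values was not tested.

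Among the TIR adaptors, Ticam1, which serves Tlr3, was at 122 to 131 CPM in small intestine tuft libraries and at 6.03 to 58.5 CPM in trachea, where it was called lower (log2 -1.92, edgeR adjusted p = 0.00144). Tirap, which bridges Myd88 to Tlr2 and Tlr4, was at 29.2 to 127 CPM in trachea and was called higher there (1.91, adjusted p = 2.42e-04) and lower in small intestine (-1.39, adjusted p = 0.0409). Pik3ap1 (BCAP), an adaptor with a TIR-like domain that links receptors to phosphoinositide 3-kinase, was at 41.3, 24.6 and 44.4 CPM in gall bladder libraries, 2.36, 0.92, 1.42 and 4.76 CPM in thymus and at most 1.2 CPM in the other tuft libraries. Gall bladder did not overlap any other group and was higher by 7.19 (adjusted p = 1.03e-05). Irf7, which acts downstream of Myd88 for nucleic acid receptors in plasmacytoid dendritic cells, was at 439, 416 and 488 CPM in small intestine tuft libraries against 75.4, 84.8 and 72.7 CPM in non-tuft libraries. It rose by 2.63 on the log2 scale (adjusted p = 3.94e-07) without overlap.

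Receptors of the IL-1 family also signal through Myd88. In small intestine tuft cells 4 of 5 tested were lower than in non-tuft cells (Il1r1 -2.10, Il18r1 -3.03, Il18rap -7.34 and Il1rl2 -4.25; list median log2 -3.03, against -0.03 over all genes), beside 13.9% of all genes. In thymus 5 of 6 were higher than in the other tuft tissues (median 4.86, against 0.33 over all genes), beside 26.8% of all genes, and in trachea 4 of 6 (median 1.81, against -0.01), beside 17.3%. Il18r1, the IL-18 receptor, was at 95.2, 56.6, 93.9 and 84.7 CPM in thymus and 65.9, 65.8, 116 and 72.3 CPM in trachea, and at most at 1.42 CPM in the tuft libraries of the other organs.

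In thymus tuft cells 13 of 14 tested NF-kB output genes were called higher than in the other tuft tissues (median log2 4.72, against 0.33 over all genes), beside 26.8% of all genes called higher. Saa3 (9.96), Nos2 (7.87) and Il12b (7.31) had the largest values, and Tnf (2.90), Saa1 (3.06) and Reg3g (2.26) the smallest. Of 8 transcription factors, 5 were higher (Nfkb1, Nfkb2, Rel, Relb and Irf5). In trachea 7 of 14 output genes were lower and 1, Reg3g, was higher (median -3.77, against -0.01 over all genes), beside 13.7% of all genes lower and 17.3% higher; Tnf was at 0 to 0.304 CPM there. Myeloid markers are given beside these lists. By sum they were highest in thymus, followed by trachea. The myeloid sum was 4298 to 6709 CPM in thymus. Of that, Cd74, the class II invariant chain that thymic epithelium also makes, was 4001 to 6357 CPM. In trachea the sum was 1832 to 3873 CPM, of which Lyz2 was 1776 to 3756 CPM. The small intestine, colon and gall bladder tuft libraries held 62.4 to 616 CPM. In thymus 8 of 13 tested myeloid markers were higher, beside the 26.8% of all genes, and each of the 14 was detected in at least 1 library. In trachea 7 of 13 were lower, beside 13.7% of all genes, and Fcer1g and C1qa were at 0. Other markers were also high in thymus. The sum of 4 neutrophil markers was 20.5 to 35.5 CPM there, against 0 to 0.251 CPM in small intestine, colon and trachea tuft libraries and up to 13.2 CPM in gall bladder. The sum of 5 markers of medullary thymic epithelium was 1166 to 1360 CPM in thymus, against 0 to 122 CPM in the other tuft libraries. The sum of 5 fibroblast markers was 17.8 to 122 CPM in thymus and overlapped trachea, at 0.819 to 107 CPM, against at most 6.32 CPM in the other 3 tuft groups. The part of these cell types in the thymus values was not tested.

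Genes with the pattern most like a member's across the 18 tuft libraries were named by Pearson's r of log2(CPM + 1) over 12923 genes. These correlations are descriptions, since libraries of a tissue share their organ, dissociation and input. For Tlr1 they were Slc37a2 (r = 0.969), Lhfpl2 (0.969) and Klk1 (0.957), and for Tlr9 Cul7 (0.945), Mmp7 (0.933) and Cdh4 (0.928). Tlr3 came nearest to Smpdl3a (0.920), Ugt1a6a (0.916) and Fap (0.864), and Tlr5 to Tns3 (0.906), Afap1 (0.838) and Cntln (0.827). Values were lower for Tlr2, with Htr4 (0.874), Aim2 (0.848) and Mpzl3 (0.842), for Myd88, with Map2k3 (0.863), Mpzl2 (0.853) and Haus3 (0.788), and for Tlr4, with Mt2 (0.813), Rbm33 (0.795) and Smg1 (0.790). Tlr6 and Tlr7 were too low for this comparison.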

How the data were processed

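Per the labels' protocols, poly(A) RNA of the sorted cells was amplified as cDNA without molecular identifiers, so floors cover counting error only. The SEs and SDs rest on the spread between libraries. The deposited files of the authors hold raw whole-number counts per gene. STAR, DESeq2 and the build GRCm38 appear in the submitters' processing notes; versions, the counter and its use of strand are not given there. Cells were freed with EDTA (small intestine, colon and gall bladder), with Liberase, DNase and Percoll (thymus) or with Dispase and trypsin (trachea), so dissociation and organ cannot be told apart. Of 4 replicates sorted per group, the authors left out 1 each of small intestine tuft, gall bladder and non-tuft cells, per the series description.

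Symbols, coordinates and exon lengths came from GENCODE M21 (42548 of 43432 identifiers matched; the 884 others held 0.0986% of counts). Counts passed filterByExpr, were TMM-scaled and were tested with edgeR 4.0.16 (glmQLFit, legacy = TRUE; two-sided; Benjamini-Hochberg) in R 4.3.3, after a trial on simulated data. Calls needed an adjusted p below 0.05 with a fold of 2 or more. Fits held the 6 small intestine libraries, the 18 tuft libraries or all 21. An approximate SE was taken as the log2 fold change divided by the root of F. Alternatives were RLE scaling, no filter, a filter of 5 CPM in 3 libraries, DESeq2 1.42.0, limma 3.58.1 voom with sample weights, no mitochondrial genes, a replicate block, all 21 libraries, no female pools and leaving out each library. Tables and figures were made with Python 3.11.15, pandas 2.3.3 and matplotlib 3.10.9.

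Of 27 pairs of libraries within groups, the lowest chi-square per degree of freedom was 35.3, so none was a repeat deposit. Members, gene lists and tests were chosen with earlier results of these data known. The rule names all 9 members, the 3 largest and 3 smallest called genes of a list, and any whose role bears on a member. One marker gene is not reported here and was left out of its sum.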

Additional observations from a re-analysis of the deposited data

Results flagged for a closer look

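Of the 25 sets of 4 libraries examined, 5 held a library far from the other 3 of its group by Dixon's test. Chance flags about 1 in 20 groups of normally spread values, a rate that does not hold for counts near 0. With 3 libraries at 0, any read in the remaining library is flagged, as for Tlr7 in colon and Tlr2 in trachea. In thymus tuft cells, Tlr9 was at 35.4 CPM (2071 reads) in replicate 1, against 10.3, 12.9 and 14.3 CPM in the other 3. The same library stood apart for Tlr7, at 0.616 CPM (36 reads) against 0, 0.0192 and 0.0449 CPM. In colon tuft cells, Tlr6 was at 0.287 CPM (16 reads) in replicate 3, against 0, 0.02 and 0.0216 CPM, and Tlr7 was at 0.195 CPM (9 reads) in replicate 2, against 0 in the other 3. In trachea tuft cells, Tlr2 was at 0.11 CPM (4 reads) in replicate 1, against 0 in the other 3. Groups of 3 libraries were not examined in this way.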

How the results depend on the processing

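The 3 calls between small intestine tuft and non-tuft cells became 0 with a filter of 5 CPM, which left Tlr2, Tlr5 and Tlr9 out, and 1 in the fit of all 21 libraries; the cause was not tested. The 11 calls over non-tuft cells became 17 with voom. The 2 values that reversed were Tlr2 in gall bladder over the other tuft tissues (-0.36 without its replicate 1; -0.36 to 3.87 over single libraries left out) and Tlr5 in gall bladder over small intestine (-0.88 without gall bladder replicate 4; -0.88 to 6.04). With 1 library left out, the counts lay between 2 and 3 (small intestine), 4 and 6 (members that differ among tissues), 11 and 16 (tissue over the others), 21 and 33 (pairs) and 10 and 14 (over non-tuft). Of the 16 calls of a tissue over the others, 8 kept direction and threshold under every alternative that tested them: Tlr1 in colon, thymus and trachea, Tlr2 in colon, and Tlr9 in colon, gall bladder, thymus and trachea. Of 45 same-numbered pairs of libraries, 1 had a correlation of deviations over 0.1 (range -0.0656 to 0.148). Such correlations between groups cannot show whether same-numbered libraries came from the same mouse. The main fits treated libraries as unpaired. With the replicate number as a block the counts were 2, 6, 14, 28 and 11 in the order above, and the Tlr5 value in the small intestine was -2.43 (adjusted p = 0.177; range over alternatives up to 0.264). Tlr6 and Tlr7 had too few counts to be tested.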

Other observations

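Genes downstream of the receptors that the report does not describe were counted in the same fits. Irak1, a kinase that Myd88 recruits, was at 102, 101 and 115 CPM in small intestine tuft libraries, against 54.8, 54.3 and 53.8 CPM in non-tuft libraries, and rose by 1.06 on the log2 scale (edgeR adjusted p = 9.49e-05). Of 20 kinases and ubiquitin enzymes, 1 was higher there and 1, Ikbke (-1.42), was lower (median -0.06, against -0.03 over all genes), beside 13% of all genes higher and 13.9% lower. Of 13 inhibitors of the pathway, 3 were higher in small intestine tuft cells (Zc3h12a 1.33, Sigirr 1.32 and Tnfaip3 1.23) and 2 were lower (Irak3 -3.01 and Nfkbie -2.47), with a median of 0.58, beside the same 13% and 13.9% of all genes.

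Nfkbia, the inhibitor that holds NF-kB in the cytosol, was at 50.8, 49.9, 42.1 and 44.9 CPM in trachea tuft libraries and at 98.5 to 336 CPM in the other tuft libraries. These groups did not overlap, and trachea was lower than the other tuft tissues, at -1.98 on the log2 scale (edgeR adjusted p = 8.82e-07). In trachea 6 of the 13 inhibitors were lower and 1, Tollip (1.52), was higher, with a median of -1.83, against -0.01 over all genes, beside 13.7% of all genes lower and 17.3% higher. In thymus 5 of 13 were higher (Nfkbie 5.30, Socs1 3.96, Tnip1 2.62, Tnfaip3 1.37 and Zc3h12a 1.16), with a median of 0.97, against 0.33 over all genes, beside 26.8% of all genes.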
